A study of Mus musculus with 17 samples.

Results

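NRF2, the transcription factor encoded by Nfe2l2, and 9 genes known as its targets were followed across media in cultured mouse pancreatic stellate cells. The 10 genes were fixed by name: Nfe2l2, Nqo1, Hmox1, Gclc, Gclm, Txnrd1, Srxn1, Gsr, Prdx1 and G6pdx. All 10 were found among the 35896 gene IDs of each library, and all 10 passed the filter on low counts that left 13923 genes for testing. The question was whether the stress response of these cells to neratinib includes NRF2 targets. Stellate cells are pancreatic cells that store retinoids at rest and turn into fibroblasts in injury and tumours. The cells, at passages 23 to 28, came from the wild-type lines PSC4 and PSC5 of C57BL/6J mice and were kept for 4 days in Matrigel, a basement membrane gel. Control medium had 5 libraries, TGF-beta at 20 ng/mL had 4, medium conditioned by pancreatic tumour organoids (CM) had 4, and CM with neratinib at 300 nM, a drug that blocks signalling by ERBB family receptors, had 4. Whether the CM cultures without neratinib received a vehicle is not given in the sources used here.

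In resting cells NRF2 is bound by KEAP1, an adaptor that hands it to a CUL3 ubiquitin ligase for breakdown. Oxidants and electrophiles modify KEAP1, and NRF2 then enters the nucleus, pairs with a small MAF protein and binds antioxidant response elements. Its targets make glutathione, run the thioredoxin system, supply NADPH, break down haem and detoxify quinones. Much of this control acts on the NRF2 protein, which RNA sequencing does not measure.

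The region before the start site could be read from RefSeq (GRCm38.p6) for 7 of the 10 genes, in 9 windows of 250 bases before to 50 after a start. Hmox1, Gclc and Gsr had no entry. The windows were searched on both strands for the core of the antioxidant response element, TGACNNNGC or TGAGNNNGC. A match was found in 6 of the 7 genes, against 30.8% of all 27025 genes with a promoter window. By window it was 6 of the 9, with 9 matches in all, against 27.8% of all 32851 promoter windows. The Nqo1 window held no match, which says only that these letters are not in it. The part before the start is shown for 4 genes: Srxn1 and Txnrd1, which rose with neratinib, G6pdx, which rose less, and Prdx1, which did not pass the test. The capitals mark the matches, and each sequence runs 5′ to 3′ on the strand of the gene.
Srxn1, chr2:152105274-152105523, plus strand: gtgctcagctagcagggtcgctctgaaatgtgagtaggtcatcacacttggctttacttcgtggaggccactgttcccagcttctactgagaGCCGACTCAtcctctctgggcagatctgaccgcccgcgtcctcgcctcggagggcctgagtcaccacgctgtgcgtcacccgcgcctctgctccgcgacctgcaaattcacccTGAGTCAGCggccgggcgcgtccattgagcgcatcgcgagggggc
Txnrd1, chr10:82858956-82859205, plus strand: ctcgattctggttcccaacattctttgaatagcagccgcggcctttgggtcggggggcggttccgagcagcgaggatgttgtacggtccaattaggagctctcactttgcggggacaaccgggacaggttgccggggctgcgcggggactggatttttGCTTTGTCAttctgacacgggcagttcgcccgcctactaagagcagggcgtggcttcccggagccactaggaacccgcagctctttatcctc
G6pdx, chrX:74428881-74429130, minus strand: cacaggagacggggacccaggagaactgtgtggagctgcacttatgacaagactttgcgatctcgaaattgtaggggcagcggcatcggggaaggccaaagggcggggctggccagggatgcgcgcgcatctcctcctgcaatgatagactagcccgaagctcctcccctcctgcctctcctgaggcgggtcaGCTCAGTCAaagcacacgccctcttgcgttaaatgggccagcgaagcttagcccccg
Prdx1, chr4:116685349-116685598, plus strand: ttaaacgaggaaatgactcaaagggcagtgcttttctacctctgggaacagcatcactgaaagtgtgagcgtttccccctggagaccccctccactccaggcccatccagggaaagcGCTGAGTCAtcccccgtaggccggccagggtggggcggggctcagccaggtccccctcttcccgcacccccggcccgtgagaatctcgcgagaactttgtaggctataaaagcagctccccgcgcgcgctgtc
Srxn1 held a match that began 158 bases before its start and another that began 45 bases before it. In Txnrd1 the match began 92 bases before the start of this window, and its other 2 windows held none. The match shown lay 57 bases before the start in G6pdx and 133 bases before it in Prdx1. In the part not shown, a further match began 28 bases after the start in Srxn1 and 15 bases after it in Prdx1. The Srxn1 matches shown fit TGAGNNNGC, which was added after the data were seen, and its further match fits TGACNNNGC. In Srxn1 (TGAGTCAGC) and in Prdx1 (GCTGAGTCA) a match overlapped TGANTCA, the site of AP-1 factors, which 7.8% of all windows held. These matches describe the letters and do not show that NRF2 was bound.

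Library totals lay between 22168953 and 29421447 counts, and levels are given as CPM, that is counts relative to the TMM-scaled library total. The replicate numbers are culture passages of the 2 lines, so p-values measure the spread between passages of these lines and not between animals. Libraries labelled PSC4 replicate 1 stood apart from their line. On the third principal component the library labelled control PSC4 replicate 1 lay at 37.0, beside the PSC5 controls at 32.3 and 36.2 and away from the other PSC4 controls at -19.7 and -27.6, and the CM and neratinib libraries of that label lay likewise beside PSC5. Results that rest on them are given with and without these 3 libraries. All 12 stellate cell and fibroblast markers were present in every group. The sum of 15 epithelial markers, of which 10 to 14 had over 3 counts in a group, was 19.4 to 29.5 CPM in control medium, 17.3 to 23.2 CPM with TGF-beta, 23.9 to 190.3 CPM in CM and 12.3 to 334.8 CPM with neratinib. Ptprc, which marks all leukocytes, had at most 1 count in any library.

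Neratinib in CM went with higher levels of nearly all of the 10 genes. Against CM alone, 9 of 10 rose and none fell (edgeR quasi-likelihood test, Benjamini-Hochberg adjusted p under 0.05 over all genes), where 10.8% of all genes tested rose and 9.63% fell. Log2 fold changes are given ± SE and levels ± SD. The largest rise was that of Hmox1, 4.79-fold (95% interval 3.08 to 7.45), and Prdx1 was the gene that did not pass. The median fold of the 10 genes was 1.53, on the log2 scale 0.61, against a median of 0.001 over all genes tested. In 8 of the 10 genes every neratinib library lay above every CM library, which held for 9.61% of all genes in that direction. Without the libraries labelled PSC4 replicate 1, 5 of 10 rose (Hmox1, Txnrd1, Srxn1, Gclm and G6pdx), where 7.42% of all genes rose and 6.73% fell. Fitted on these 2 groups alone, 2 of 10 rose (Hmox1 and Gclc), where 2.54% of all genes did. In bulk RNA, a change in the share of cells that express a gene and a change in RNA per cell cannot be told apart.

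**Figure D1:**
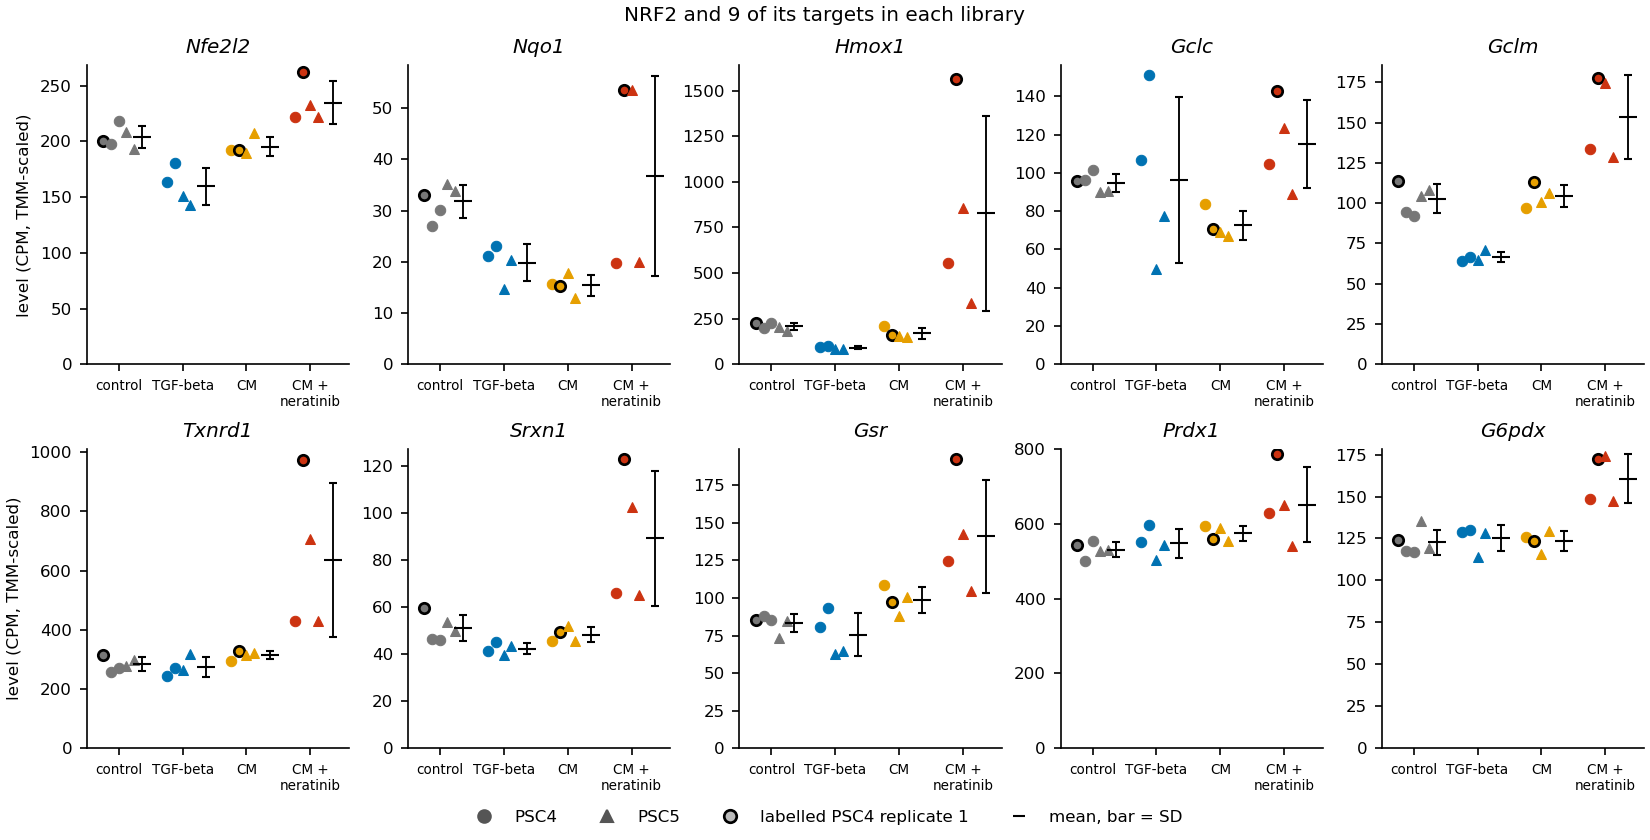
Level of each of the 10 genes (y axis, CPM after TMM scaling, linear from 0) in each library of the 4 groups; circles are PSC4, triangles PSC5, black outlines mark libraries labelled PSC4 replicate 1, and the bar is the mean ± SD. With neratinib the libraries PSC4 replicate 1 and PSC5 replicate 2 lie above the other 2 in all 10 genes.

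Against CM the haem and quinone enzymes had the largest fitted rises of the 10. Hmox1 (ENSMUSG00000005413, chr8:75093621-75100589, GRCm38) encodes haem oxygenase 1, which breaks haem into biliverdin, iron and carbon monoxide. Its level with neratinib was 1565 CPM in PSC4 replicate 1, 554 CPM in PSC4 replicate 2, 335 CPM in PSC5 replicate 1 and 856 CPM in PSC5 replicate 2. In CM the same lines and numbers held 160.4, 209.9, 151 and 154 CPM. The lowest neratinib library was thus above the highest CM library, and the neratinib libraries themselves spread widely (827 ± 536 CPM, SD, n = 4, against 169 ± 27.7 CPM in CM). The log2 fold change was 2.26 ± 0.30 (edgeR adjusted p = 0.000319), and it was 1.78 ± 0.25 (adjusted p = 0.00119) without the libraries labelled PSC4 replicate 1. Hmox1 rose in all 15 alternative fits of this comparison. In control medium it was between 184 and 226 CPM over 5 libraries, and with TGF-beta between 83.6 and 99.0 CPM over 4, so TGF-beta libraries lay below all others.

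Nqo1 (ENSMUSG00000003849, chr8:107388225-107403206) encodes a quinone reductase and is a standard readout of NRF2. With neratinib it was 53.6 CPM in PSC4 replicate 1 and 53.6 CPM in PSC5 replicate 2, but 19.7 CPM in PSC4 replicate 2 and 19.9 CPM in PSC5 replicate 1. In CM it was 15.3, 15.7, 12.9 and 17.8 CPM in PSC4 replicates 1 and 2 and PSC5 replicates 1 and 2. Control libraries held 27.1 to 35.2 CPM and TGF-beta libraries 14.7 to 23.2 CPM. The control libraries thus lay between the 2 lower and the 2 higher neratinib libraries. Nqo1 rose against CM with a log2 fold change of 1.25 ± 0.29 (adjusted p = 0.00874). Without the libraries labelled PSC4 replicate 1 the value was 0.99 ± 0.33 and did not pass (adjusted p = 0.0618).

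Glutathione synthesis and recycling were represented by 3 genes. Gclc (ENSMUSG00000032350, chr9:77754535-77794485) and Gclm (ENSMUSG00000028124, chr3:122245557-122270732) encode the catalytic and the modifier subunit of glutamate-cysteine ligase, the rate-limiting enzyme of glutathione synthesis. Gclm with neratinib was 178, 134, 129 and 175 CPM in PSC4 replicates 1 and 2 and PSC5 replicates 1 and 2. The same order in CM gave 113, 96.8, 106 and 101 CPM, and the groups did not overlap. Gclm rose by a log2 fold change of 0.56 ± 0.11 (adjusted p = 0.00268), with 0.52 ± 0.09 without the libraries labelled PSC4 replicate 1. Its control libraries (92.2 to 114 CPM) resembled CM in range, and its TGF-beta libraries (64.4 to 70.9 CPM) lay below all others.

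Gclc with neratinib was 143, 105, 89.1 and 124 CPM in the same order, against 70.5, 83.9, 67.2 and 69.4 CPM in CM. Each neratinib library lay above each CM library, while control libraries (90.1 to 101.6 CPM) overlapped the neratinib range. The log2 fold change against CM was 0.66 ± 0.20 (adjusted p = 0.0307). It was 0.55 ± 0.24 and did not pass (adjusted p = 0.145) without the libraries labelled PSC4 replicate 1. The call was lost when any of 6 single libraries was left out. Leaving out CM libraries gave adjusted p = 0.0640 (PSC4 replicate 2), 0.0935 (PSC4 replicate 1), 0.0520 (PSC5 replicate 2) and 0.0543 (PSC5 replicate 1), and leaving out neratinib libraries 0.0767 (PSC4 replicate 1) and 0.107 (PSC5 replicate 2), with log2 fold changes between 0.54 and 0.70. Gsr (ENSMUSG00000031584, chr8:33652523-33698163) encodes glutathione reductase, which regenerates glutathione with NADPH. It was 193, 125, 104 and 142 CPM with neratinib and 97.6, 108, 101 and 87.9 CPM in CM, so that the lowest neratinib library fell inside the CM range. Gsr rose by a log2 fold change of 0.51 ± 0.13 (adjusted p = 0.0139). It did not pass without CM PSC4 replicate 1 (0.45, adjusted p = 0.0503), without neratinib PSC5 replicate 2 (0.44, adjusted p = 0.0533) or without all libraries labelled PSC4 replicate 1 (0.33, adjusted p = 0.0934).

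The thioredoxin genes split by size of change. Txnrd1 (ENSMUSG00000020250, chr10:82833951-82897712) encodes thioredoxin reductase 1, which keeps cytosolic thioredoxin reduced. It was 974, 431, 429 and 708 CPM with neratinib in PSC4 replicates 1 and 2 and PSC5 replicates 1 and 2, and 329, 296, 322 and 315 CPM in CM. Control libraries (257 to 315 CPM) and TGF-beta libraries (242 to 319.6 CPM) lay with CM, and every neratinib library was above all 13 others. The log2 fold change against CM was 1.01 ± 0.21 (adjusted p = 0.00417) and 0.74 ± 0.15 (adjusted p = 0.00706) without the libraries labelled PSC4 replicate 1. Srxn1 (ENSMUSG00000032802, chr2:152105516-152111376) encodes sulfiredoxin, which repairs overoxidised peroxiredoxins. Its levels were 123, 66.0, 65.0 and 103 CPM with neratinib and 49.5, 45.7, 45.7 and 51.9 CPM in CM. All 4 neratinib libraries again lay above the other 13, with a log2 fold change of 0.89 ± 0.17 (adjusted p = 0.00292), and 0.70 ± 0.14 (adjusted p = 0.00731) without the libraries labelled PSC4 replicate 1. Prdx1 (ENSMUSG00000028691, chr4:116685544-116700822), an abundant peroxiredoxin that removes hydrogen peroxide, was 786, 628, 541 and 652 CPM with neratinib and 560.4, 595, 556 and 588 CPM in CM. The groups overlapped, and the log2 fold change of 0.18 (95% interval -0.002 to 0.36) did not pass (adjusted p = 0.152). It passed when neratinib PSC5 replicate 1 was left out (0.25, adjusted p = 0.0310).

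G6pdx (ENSMUSG00000031400, chrX:74409483-74429194) encodes glucose-6-phosphate dehydrogenase, which makes NADPH at the entry to the pentose phosphate pathway. It was 172, 149, 147 and 174 CPM with neratinib and 124, 126, 129.7 and 116 CPM in CM, in PSC4 replicates 1 and 2 and PSC5 replicates 1 and 2. The groups did not overlap. The rise was small and tight, with a log2 fold change of 0.38 ± 0.07 (adjusted p = 0.00351) and 0.34 ± 0.09 without the libraries labelled PSC4 replicate 1. Reads shared with the retrogene copy G6pd2, or with Ikbkg on the other strand, could have been assigned either way by the authors' counting. Nfe2l2 itself (ENSMUSG00000015839, chr2:75675513-75704641) was 262, 222, 222 and 233 CPM with neratinib and 192, 192, 208 and 189 CPM in CM. All neratinib libraries lay above all CM libraries, and the log2 fold change was 0.26 ± 0.07 (adjusted p = 0.0191). That call was lost without CM PSC4 replicate 2 (adjusted p = 0.0597), CM PSC4 replicate 1 (0.0631), neratinib PSC4 replicate 1 (0.0601) or neratinib PSC5 replicate 2 (0.0540), with log2 fold changes of 0.22 to 0.25, and it was 0.20 (adjusted p = 0.108) without all libraries labelled PSC4 replicate 1.

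The size of the rise differed between cultures. Paired by line and replicate number, which per the labels share a passage, 9 of the 10 genes were higher with neratinib in all 4 pairs, and Prdx1 was higher in 3. The median log2 ratio of the 10 genes was 1.00 in PSC4 replicate 1, 0.81 in PSC5 replicate 2, 0.34 in PSC5 replicate 1 and 0.33 in PSC4 replicate 2. The 2 cultures with the larger rise differ in line and in the code of the conditioned medium, which the labels give as T8 for replicate 1 and T6 for replicate 2. PSC4 replicate 1 was the highest neratinib library in 9 genes, and these 2 libraries were the highest in all 10. The shares of all genes with this order, or higher in all 4 pairs, were not counted. On the second principal component, drawn from all genes tested, the neratinib libraries lay in a like order. They were at -84.1 (PSC4 replicate 1), -46.9 (PSC5 replicate 2), -25.6 (PSC5 replicate 1) and -17.2 (PSC4 replicate 2). The order was thus not confined to the 10 genes. For Hmox1 the ratio was 9.75 in PSC4 replicate 1 and 5.56 in PSC5 replicate 2, but 2.64 and 2.22 in the other 2 pairs.

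**Figure D2:**
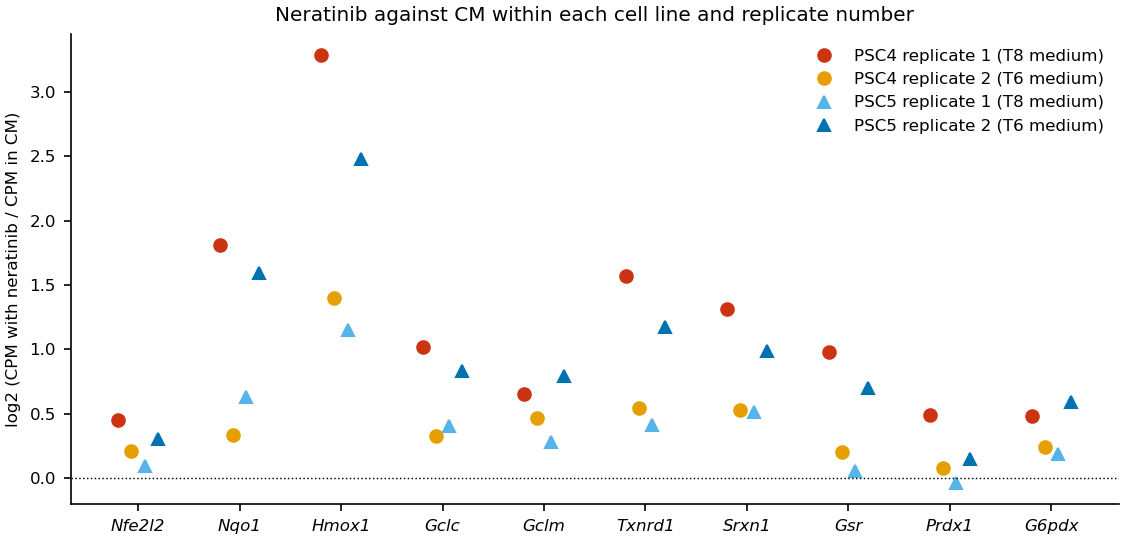
Log2 ratio of CPM with neratinib to CPM in CM (y axis) for each of the 10 genes, with 1 point per pair of libraries of the same line and replicate number; 0 means equal levels. PSC4 replicate 1 and PSC5 replicate 2 give the larger ratios, with medians of 1.00 and 0.81 against 0.33 and 0.34.

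Some other measures also set these 2 libraries apart, and some did not. Pdgfra, a receptor that marks fibroblasts, was 60.5 CPM in neratinib PSC4 replicate 1 and 119 CPM in PSC5 replicate 2, against 336 and 276 CPM in the other neratinib libraries. Of the 12 stellate cell and fibroblast markers, 6 were lower in both of these libraries than in both others (Pdgfra, Pdgfrb, Col1a1, Col3a1, Lum and Fap), 2 were higher (Vim and Des) and 4 were mixed. The summed level of the 12 was 5279 CPM in PSC4 replicate 1 and 4507 CPM in PSC5 replicate 2, against 5926 CPM in PSC4 replicate 2 and 7305 CPM in PSC5 replicate 1. Their epithelial marker sums lay at opposite ends, 12.3 CPM in PSC4 replicate 1, where Krt8 had no count, and 334.8 CPM in PSC5 replicate 2. These sums went with the medium code, at 150.2 to 334.8 CPM in the 4 CM and neratinib libraries with T6 and 12.3 to 54.8 CPM in the 4 with T8. Of 6 immune markers 2 exceeded 3 counts in a neratinib library and Ptprc had none, and their sum was 13.1 CPM in neratinib PSC4 replicate 1 and 1.80 to 3.50 CPM in the other 16 libraries. Most of it was Cd68, a lysosomal protein abundant in macrophages, at 12.3 CPM against 1.37 to 2.54 CPM. Mitochondrial transcripts made 2.14% to 2.41% of counts in the neratinib libraries, 1.78% to 1.98% in CM and 1.97% to 2.67% in control medium. The part of fibroblast markers, immune and epithelial RNA and mitochondrial share in the rise was not tested.

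The lines did not differ detectably. In an edgeR interaction test 0 of 13923 genes (0.0%), and thus 0 of the 10, had a response to neratinib that differed between PSC4 and PSC5. At an unadjusted p under 0.05 there were 237 genes and none of the 10, and DESeq2 found 1 gene in all. The log2 fold change of Hmox1 was 2.52 ± 0.45 within PSC4 and 1.96 ± 0.44 within PSC5, and that of Nqo1 was 1.24 ± 0.45 and 1.26 ± 0.45. Without the libraries labelled PSC4 replicate 1, the values within PSC4 were 1.4 ± 0.46 for Hmox1 and 0.33 ± 0.53 for Nqo1, from 1 library a group, against 1.96 ± 0.33 and 1.26 ± 0.38 within PSC5. The interaction then again gave 0 genes in edgeR, with 211 at an unadjusted p under 0.05. For the interaction of Hmox1 with all libraries, the 95% interval of PSC5 minus PSC4 ran from -1.86 to 0.76. Differences within that range thus remained possible. The medium code was fitted as 1 shift shared by the CM and neratinib libraries. It thus does not test whether the response to neratinib differed by code. T6 against T8 gave 0 genes (0.0%) in edgeR, with 906 at an unadjusted p under 0.05 and none of the 10. It gave 5 genes without the libraries labelled PSC4 replicate 1. For Hmox1 the 95% interval of T6 minus T8 was wide, from -0.75 to 1.21 on the log2 scale.

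Set against control medium, most of the genes were still higher in CM with neratinib. No library had neratinib in control medium. This comparison, called neratinib against control below, thus changes medium and drug together. Of the 10, 8 rose and none fell, where 22.2% of all genes rose and 20.9% fell. In 7 of them the libraries did not overlap, as in 14.1% of all genes in that direction. Hmox1 rose 3.97-fold (log2 1.99 ± 0.27, adjusted p = 8.31e-05), Txnrd1 2.24-fold (1.16 ± 0.19, adjusted p = 0.000326), Srxn1 1.75-fold, Gsr 1.71-fold and Gclm 1.49-fold. G6pdx rose 1.31-fold and Prdx1 1.23-fold, and these 7 genes rose in all 16 alternative fits. Nfe2l2 rose 1.16-fold (log2 0.21 ± 0.07, adjusted p = 0.0211). That call was lost without neratinib PSC4 replicate 1 (0.16, adjusted p = 0.0852), without neratinib PSC5 replicate 2 (0.20, adjusted p = 0.0501), with upper-quartile factors (0.15, adjusted p = 0.0600) and without all libraries labelled PSC4 replicate 1 (0.16, adjusted p = 0.112). Gclc (log2 0.31, 95% interval -0.09 to 0.71) and Nqo1 (0.21, -0.37 to 0.79) did not pass. The Nqo1 value turned negative without neratinib PSC4 replicate 1 (-0.078) or PSC5 replicate 2 (-0.069).

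CM alone changed little here. Against control medium 1 of the 10 genes passed and fell, Nqo1, where 7.14% of all genes fell, and none rose, where 7.05% of all genes did. Nqo1 was 15.4 ± 2.00 CPM (SD, n = 4) in CM and 31.8 ± 3.23 CPM (n = 5) in control medium, and every CM library lay below every control library, as in 10.4% of all genes. Its log2 fold change was -1.05 ± 0.28 (adjusted p = 0.0236). The call was lost without CM PSC4 replicate 2 (adjusted p = 0.0588), CM PSC4 replicate 1 (0.0572), CM PSC5 replicate 1 (0.0850), control PSC5 replicate 1 (0.0573) or control PSC5 replicate 2 (0.0528), with values between -1.04 and -0.97. Among genes that did not pass, Gclc was likewise lower in all CM libraries (log2 -0.35, 95% interval -0.75 to 0.05), and Gsr had a value of 0.27 (0.009 to 0.53, adjusted p = 0.159). Prdx1 lay above control in all CM libraries, as did 9.37% of all genes, with a log2 value of 0.12. The other 6 lay between -0.27 and 0.15, and DESeq2 called Nqo1 alone of the 10 as well. Fitted on these 2 groups alone, Gclc (-0.37) and Hmox1 (-0.28) also fell and Gsr (0.25) rose. In that fit 10.73% of all genes fell and 9.84% rose. Since this comparison shares the CM libraries with the neratinib comparison, the fall of Nqo1 in CM and its rise with neratinib are not independent.

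With TGF-beta, which turns stellate cells into myofibroblasts, the share of the 10 genes that passed as lower was near that of all genes. Against control medium 3 of the 10 genes fell, where 20.5% of all genes did, and none rose, where 19.7% did. Hmox1 fell by 1.17 ± 0.28 in log2 units (adjusted p = 0.00385), Gclm fell by 0.63 ± 0.10 (adjusted p = 0.000192) and Nfe2l2 fell by 0.35 ± 0.07 (adjusted p = 0.000995). Nfe2l2 was 164 and 180.4 CPM in PSC4 replicates 2 and 3 and 151 and 143 CPM in PSC5 replicates 1 and 2 with TGF-beta, against 193 to 218 CPM in control medium. These 3 calls held in all 16 alternative fits. In 5 genes all TGF-beta libraries lay below all control libraries, as in 16.3% of all genes, Nqo1 and Srxn1 being the other 2. Nqo1 did not pass (log2 -0.68, 95% interval -1.27 to -0.09, adjusted p = 0.0628), but passed with replicate number as a block (-0.64, adjusted p = 0.0451), and also with upper-quartile factors (adjusted p = 0.0466), DESeq2 (0.0395) and a fit of these 2 groups (0.00343), where Srxn1 passed too (-0.26, adjusted p = 0.0364). Gclc was 107 and 151 CPM in PSC4 replicates 2 and 3 and 49.9 and 77.4 CPM in PSC5 replicates 1 and 2, so that the lines lay on opposite sides of the control range. Its interaction with cell line was -0.91 ± 0.31 on the log2 scale (PSC5 minus PSC4), with an unadjusted p of 0.0123 that was lost on adjustment over all genes (edgeR adjusted p = 0.987).

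**Figure D3:**
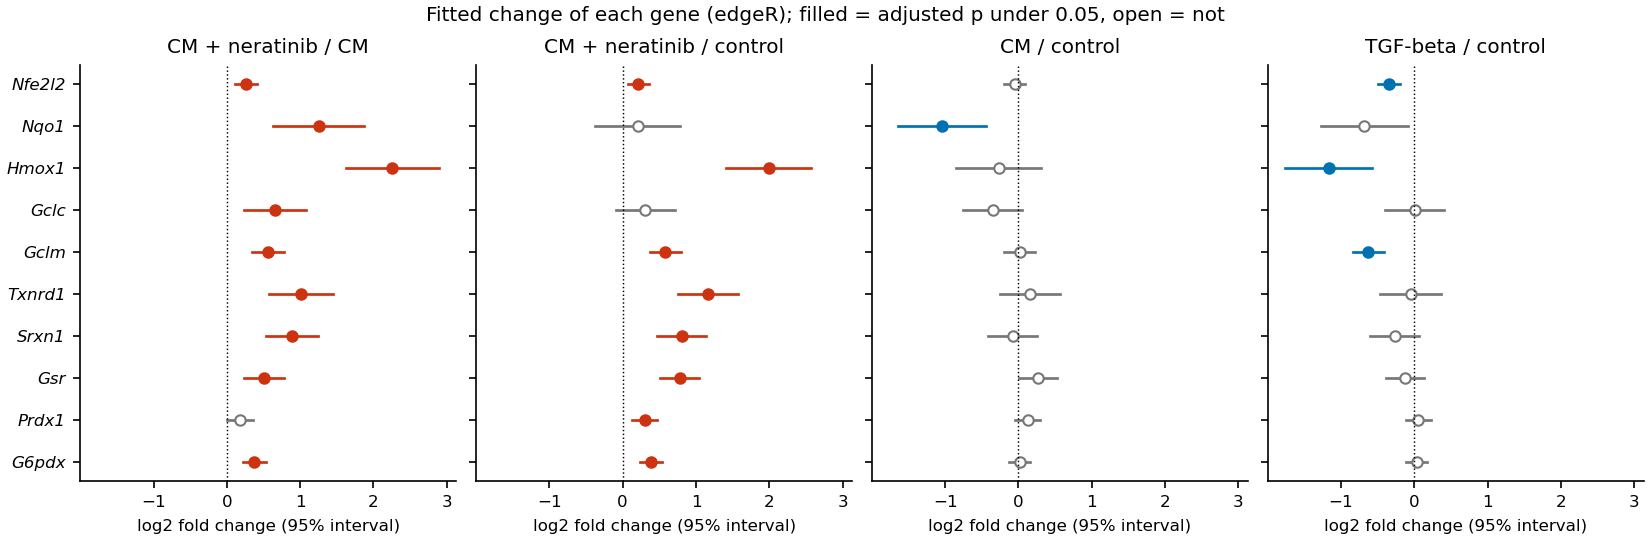
Fitted log2 fold change (x axis) with its 95% interval for each of the 10 genes in 4 comparisons; filled red is higher, filled blue lower and open grey did not pass. Filled red points number 9 for neratinib against CM and 8 for neratinib against control, and filled blue points 1 for CM and 3 for TGF-beta.

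Levels can be ranked between genes only per length, here as CPM per kb of annotated exon. In control medium Prdx1 was highest (174.5 ± 6.59 CPM per kb, SD, n = 5), followed by Hmox1 (118.6 ± 10.1) and Nfe2l2 (53.6 ± 2.61), and Nqo1, Srxn1 and Gclm at 20.5, 18.1 and 16.3 CPM per kb were lowest. Of these, neither Nqo1 and Srxn1 nor Srxn1 and Gclm differed beyond their spread. With neratinib the mean of Hmox1 (472.5 ± 306.2 CPM per kb, SD, n = 4) was above that of Prdx1 (214 ± 33.3), within the spread of Hmox1. In CM the lowest was Nqo1, at 9.92 ± 1.29 CPM per kb. Over the 17 libraries, which share lines and media, log2 CPM correlated most between Txnrd1 and Srxn1 (Pearson r = 0.959) and between Hmox1 and Srxn1 (r = 0.945). The lowest correlation was that of the 2 ligase subunits, Gclc with Gclm (r = 0.329). Among all genes tested, the pattern most like Hmox1 was that of Slc48a1, a haem transporter (r = 0.972), and most like Txnrd1 was Esd (r = 0.986). For Nqo1 these were Trim16 (r = 0.919), Aldh3a1 (r = 0.878) and Gsta4 (r = 0.869), and for Srxn1 Mgat4b (r = 0.978), Adh5 (r = 0.964) and Esd (r = 0.961). For Gclm the closest was Bcl2l1 (r = 0.979), for Nfe2l2 Chek1 (r = 0.971), for G6pdx Tmem120a (r = 0.959), for Gsr Emc10 (r = 0.956), for Prdx1 Cops7a (r = 0.951) and for Gclc Rchy1 (r = 0.880).

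Regulators of NRF2 moved in part. Of 10 regulator genes, 3 rose with neratinib against CM and none fell, where 10.8% of all genes rose and 9.63% fell. Sqstm1, whose product p62 draws KEAP1 into autophagy, rose by a log2 fold change of 0.80 ± 0.20 (adjusted p = 0.0119; 754 ± 273 against 432 ± 44.1 CPM). Nfe2l1, encoding the related factor NRF1, rose by 0.51 ± 0.11 (adjusted p = 0.00672), and Mafg, a small MAF partner, by 0.49 ± 0.13 (adjusted p = 0.0166). These 3 also passed without the libraries labelled PSC4 replicate 1, but not in a fit of these 2 groups alone (adjusted p = 0.0953, 0.0779 and 0.112 in the order given). The inhibitor Keap1 was 80.8 ± 2.13 CPM with neratinib and 79.0 ± 5.62 CPM in CM (log2 0.03, 95% interval -0.09 to 0.16). Bach1, a repressor of Hmox1, had a value of 0.10 (-0.09 to 0.30). Cul3 (-0.10) and Rbx1 (0.02), of the ligase that acts with KEAP1, and Mafk (0.25) and Maff (0.07) did not pass either, nor did Nfe2l3 (-0.60, with group means of 1.27 and 1.87 CPM).

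Beyond the 10, genes of the pathway were read from 6 lists of 65 genes, of which 61 were tested. The list of 10 regulators, with Keap1 and Bach1, is 1 of the 6, so its 3 rises are counted again here. Against CM 21 of the 61 rose with neratinib and 3 fell, with a median log2 fold change of 0.22, beside 10.8% and 9.63% of all genes. Without the libraries labelled PSC4 replicate 1, 13 rose and 3 fell, beside 7.42% and 6.73%. Fitted on these 2 groups alone, 3 rose (Slc7a11, Esd and Htatip2), beside 2.54% of all genes. In glutathione supply and conjugation 5 of 13 rose. Slc7a11, the cystine importer, rose by 2.31 ± 0.33 (adjusted p = 0.000533; 107 ± 55.3 against 21.7 ± 6.89 CPM), Gsta4 by 2.19 ± 0.54, Esd, whose product hydrolyses S-formylglutathione, by 1.67 ± 0.27 and Gstp1 by 0.65 ± 0.17. Without the libraries labelled PSC4 replicate 1, 2 of 13 passed, and of the genes named Gsta4 (adjusted p = 0.0717) and Gstp1 (adjusted p = 0.0587) did not. In thioredoxin and peroxide removal 4 of 11 rose, namely catalase (Cat, 0.94 ± 0.18), Txn2 (0.63 ± 0.18), Prdx6 (0.54 ± 0.10) and Txn1 (0.47 ± 0.11). In this list 6 rose and 1 fell with replicate number as a block, where 16.82% of all genes rose and 15.95% fell.

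For NADPH supply 2 of 5 rose against CM, beside 10.8% of all genes. These were Taldo1 (0.58 ± 0.19) and Pgd (0.55 ± 0.16), both of the pentose phosphate pathway. Neither passed without the libraries labelled PSC4 replicate 1 (0 of 5 by edgeR, 2 at an unadjusted p under 0.05, adjusted p = 0.16 and 0.10), while DESeq2 on all libraries called both. Haem and iron genes gave 3 rises and 2 falls of 7, where 10.8% of all genes rose and 9.63% fell. Blvrb, a biliverdin reductase, rose by 0.74 ± 0.18 and the ferritin chains Ftl1 and Fth1 by 0.55 ± 0.13 and 0.48 ± 0.14, and the iron exporter Slc40a1 fell by 1.08 (SE 0.27). Of these rises that of Fth1 passed without the libraries labelled PSC4 replicate 1, and those of Blvrb (adjusted p = 0.0519) and Ftl1 (adjusted p = 0.0587) did not. In detoxification and export 4 of 15 rose and 1 fell, beside the same shares of all genes. Among them the exporters Abcc4 (0.94 ± 0.21) and Abcc1 (0.66 ± 0.17) and Htatip2 (0.43 ± 0.09) rose, and Akr1b10 fell by 0.41. The remaining calls of these lists, named after their values were seen, were rises of Gsta3 and Aldh3a1, both with group means under 5 CPM, and a fall of Blvra by 0.26. In the other comparisons of the 61 genes, 30 rose and 11 fell with neratinib against control medium, where 22.2% of all genes rose and 20.9% fell. With CM 9 rose and 9 fell (7.05% and 7.14% of all genes), and with TGF-beta 10 rose and 19 fell (19.7% and 20.5%). Ferritins and Gstp1 have close copies in the genome, so shared reads may be split between the copies.

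The integrated stress response, in which ATF4 induces genes of amino acid supply, was set beside the NRF2 genes because some genes serve both. Of 16 genes on its list 15 rose with neratinib against CM and none fell, beside 10.8% and 9.63% of all genes. The median log2 fold change was 1.09. The same counts were found without the libraries labelled PSC4 replicate 1, beside 7.42% and 6.73% of all genes. In the fit of these 2 groups alone 12 of 16 rose and none fell, beside 2.54% and 2.0% of all genes. Against control medium 8 of 16 rose with CM alone, where 7.05% of all genes did, and 10 rose and 1 fell with TGF-beta, where 19.7% and 20.5% did. Trib3 rose by 2.47 ± 0.21, Chac1, which degrades glutathione, by 1.98 ± 0.19, Asns by 1.49 ± 0.16 and Slc3a2, the partner chain of Slc7a11, by 1.34 ± 0.12. By culture, the median log2 ratio of this list was 1.3, 1.13, 0.93 and 1.23 in PSC4 replicates 1 and 2 and PSC5 replicates 1 and 2, a narrower spread than the 1.00, 0.33, 0.34 and 0.81 of the 10 NRF2 genes. The difference in spread was not tested. Of 11 heat shock genes, 1 rose (Hspd1, 0.44 ± 0.14) and 1 fell (Hspa1b, by 0.77, SE 0.13), where 10.8% and 9.63% of all genes did, and the median was 0.10. With replicate number as a block 3 rose and 3 fell, where 16.82% and 15.95% of all genes did. Hspd1 did not pass without the libraries labelled PSC4 replicate 1 (adjusted p = 0.107). Hspa1b is nearly identical to Hspa1a, and their reads cannot be fully separated.

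**Figure D4:**
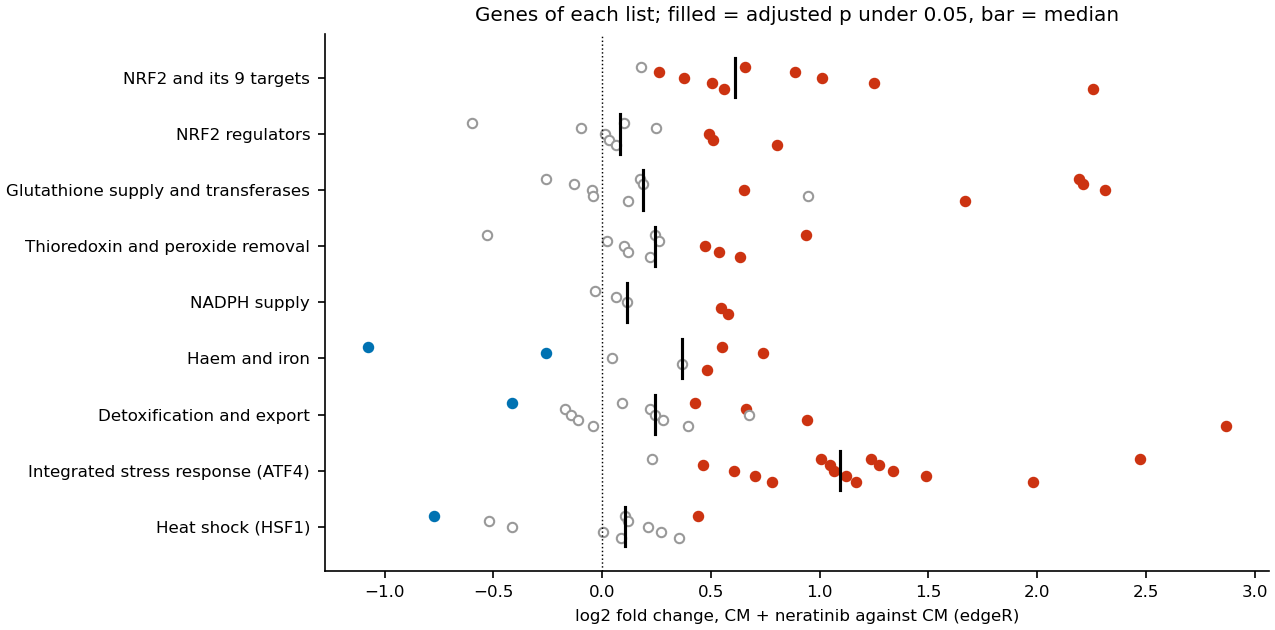
Log2 fold change for CM with neratinib against CM (x axis) of each gene tested, by list (rows); filled red is higher, filled blue lower, open did not pass, and the black bar is the list's median. The medians are 0.61 for NRF2 and its 9 targets, 1.09 for the ATF4 list and 0.10 for the heat shock list.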

How the data were processed

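Salmon expected counts per Ensembl gene were deposited, 1 set of values per library, from mRNA libraries of TRIzol-collected cells, per the labels' protocols. Salmon 1.4.0, DESeq 2 and the build GRCm38 (mm10) are named in the submitters' processing notes, and the annotation release is not given in the sources used here. The deposited expected counts were rounded, which changed a total by at most 307.9 counts. Symbols and positions came from GENCODE M21 on GRCm38 for 35437 of 35896 IDs, and exon lengths from the same annotation.

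All 17 libraries entered 1 model of group and cell line in edgeR 4.0.16 (R 4.3.3) with TMM factors and filterByExpr (10 counts in enough libraries, 15 in total), which left 13923 genes, using glmQLFit and glmQLFTest. Genes with a Benjamini-Hochberg adjusted p under 0.05 over all genes passed. Every adjusted p in the text is from this test unless DESeq2 is named. The fit was tested on simulated data with the same spread for all genes and no difference between lines or passages. That test does not bear on calls that rest on uneven libraries. Alternatives were upper-quartile factors, no low-count filter, DESeq2 1.42.0, only the groups compared, a replicate block, the libraries labelled PSC4 replicate 1 removed or counted with PSC5, and leaving out each library.

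Each line and number shares 1 passage per the labels, 5 passages in all. Over the 22 pairs of libraries with the same line and number, deviations from group means correlated with r of 0.120 to 0.635 (median 0.299). For another number of the line r ran from -0.536 to 0.613 (median -0.0756). Libraries of equal number were thus more alike by the median, and the ranges overlapped. The main fit had no term for the number, and the replicate block had one. No libraries of a group agreed within sampling noise.

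The 10 genes and all lists were chosen with earlier results of these data known. All 10 genes were named, other listed genes if they passed for neratinib against CM (up to 4 per list, at least 5 CPM) or regulate NRF2, and per gene those most correlated. The motif TGAGNNNGC and the list counts without PSC4 replicate 1, with the block or in 2 groups alone were added after the data were seen. Promoters came from the RefSeq table. Correlations used a prior count of 2.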

Additional observations from a re-analysis of the deposited data

Results flagged for a closer look

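In 4 of the 40 sets of library values (10 genes in 4 groups), the highest or lowest library lay far from the rest of its group, which chance gives in about 1 set of 20. Nfe2l2 was 207.9 CPM in CM PSC5 replicate 1, against 189.1 to 192.0 CPM in the other CM libraries. Hmox1 was 209.9 CPM in CM PSC4 replicate 2, against 151.1 to 160.4 CPM. Gsr was 73.2 CPM in control PSC5 replicate 1, against 84.4 to 88.0 CPM in the other controls. G6pdx was 113.9 CPM in TGF-beta PSC5 replicate 1, against 128.2 to 130.2 CPM.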

How the results depend on the processing

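Over the alternative fits of the 10 genes in 4 comparisons, 565 kept direction and side of the threshold, 32 lost and 9 gained the call, and 24 reversed, none of which passed either way. Of the 10 genes, 2 passed for neratinib against CM in a fit of these 2 groups only (602 of all genes, against 2850) and 5 without the libraries labelled PSC4 replicate 1. The 2-group fit gave 4 for CM against control (1 higher, 3 lower), where 9.84% of all genes rose and 10.73% fell. For TGF-beta it gave 5, all lower, where 21.77% of all genes fell. Leaving out 1 library gave 0 to 1 for CM. With the replicate block, 4563 of all genes passed for neratinib and 3240 for CM (1976 without it). Among the 10 genes the replicate block changed no call but that of Nqo1 with TGF-beta.

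For CM against control, Gclm reversed to -0.028 with upper-quartile factors, -0.000418 with the replicate block and -0.00177 with PSC4 replicate 1 counted as PSC5 (leaving out 1 library: -0.030 to 0.062), and G6pdx to -0.033 with upper-quartile factors (-0.00831 to 0.059). For neratinib against control, Nqo1 was -0.060 without the libraries labelled PSC4 replicate 1 (-0.078 to 0.432). With TGF-beta, Gclc was -0.046 with upper-quartile factors, -0.066 with the replicate block, -0.032 without the libraries labelled PSC4 replicate 1 and -0.060 with them as PSC5 (-0.234 to 0.199), Txnrd1 0.025 with the block (-0.136 to 0.015) and G6pdx -0.018 with upper-quartile factors. The cause was not tested. Upper-quartile factors lowered the share of calls that were higher from 49.7% to 37.5% for CM, 51.4% to 41.1% for neratinib against control and 49.0% to 41.3% for TGF-beta. Leaving out 1 library gave 1748 calls over all genes for neratinib against CM without neratinib PSC5 replicate 2 and 801 for CM against control without CM PSC5 replicate 1.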
